A study of Mus musculus with 6 samples.

Results

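The UDP-glucuronosyltransferases are enzymes of the endoplasmic reticulum that join a sugar to a small fat-soluble molecule, so that it dissolves in water and can leave the body in bile or urine. Enzymes of the Ugt2 family use UDP-glucuronic acid, and in liver their substrates include steroid hormones, bile acids, fatty acid derivatives and drugs. The Ugt3 enzymes are their relatives and use other sugar donors. In humans, UGT3A1 uses UDP-N-acetylglucosamine, and UGT3A2 uses UDP-glucose and UDP-xylose.

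The data described here are 10 genes of these families, Ugt2a3, Ugt2b1, Ugt2b5, Ugt2b34, Ugt2b35, Ugt2b36, Ugt2b37, Ugt2b38, Ugt3a1 and Ugt3a2, out of 49671 genes in a table of liver RNA counts. They were found by Ensembl gene ID. The family was selected on the measured difference in counts between KO and WT livers, which was already known, so the values of KO and WT livers below are a description and carry no test. Both remaining Ugt2 genes in the table, Ugt2a1 and Ugt2a2, had 0 counts in every library.

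The 6 RNA-seq libraries were made from whole liver of mice at 6 months of age. WT (wild-type) mice gave 3 of them, numbered 1, 2 and 3, and the other 3 came from mice without a functional p75 neurotrophin receptor (p75NTR KO), numbered 1, 2 and 4. The mutant mice carry the Ngfr deletion in every tissue and were obtained from The Jackson Laboratory, and the strain label of all 6 samples, WT included, names that Ngfr stock. The sources used here do not state the sex of the mice, and the labels separate animals only by replicate number, so the spread given below is that between these samples.

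WT libraries held between 27107209 and 31412855 counts, KO libraries between 29784429 and 32664149. Ngfr, the targeted gene, had 133, 144 and 78 counts in WT and 53, 27 and 47 in KO. The summed level of 4 hepatocyte markers was 104900 to 120800 CPM (a gene's count relative to the library total after TMM scaling) in WT and 96680 to 115300 CPM in KO, and 3 kidney tubule markers reached at most 0.0633 CPM. Fewer cells of a type and less RNA per cell cannot be told apart in bulk tissue. The library of KO replicate 4 stood apart. It had 4712 counts of 4 Y-linked genes and 16 of Xist, against 0 to 2 and 6599 to 9554 in the other 5 libraries. The summed level of 12 genes with male-biased expression in liver was 9756 CPM in it and 263 to 483 CPM elsewhere, that of 13 female-biased genes 45.5 CPM and 1926 to 3806 CPM. By these counts KO replicate 4 looked male and the other 5 libraries female, though no label states sex. Only the KO group then mixes the sexes. The fold changes, calls and correlations are therefore given with and without KO replicate 4.

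The 8 Ugt2 genes lie in 1 cluster on chromosome 5 of GRCm38, from 86889767, the end of Ugt2b34, to 87424203, the start of Ugt2b38, and the 2 Ugt3 genes lie beside each other on chromosome 15, Ugt3a1 from 9276888 to 9315032 and Ugt3a2 from 9335550 to 9370955, on the plus strand. Of the Ugt2 genes, Ugt2b35 (87000860 to 87013275) is on the plus strand, and the others, with Ugt2b34 (86889767 to 86906937), Ugt2b1 (86916638 to 86926530), Ugt2b36 (87065927 to 87092555) and Ugt2a3 (87324972 to 87337195) among them, are on the minus strand. Ugt2b5 (87124960 to 87140318), Ugt2b37 (87240493 to 87254804) and Ugt2b38 (87409942 to 87424203) are close copies of each other. Over their 1590 aligned coding bases, 112 positions differed among the 3 genes. Ugt2b37 alone differed at 65 of these, Ugt2b38 alone at 27 and Ugt2b5 alone at 18.

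Their sequences are shown because the counts of these 3 genes behave differently although reads could be misplaced among them. The 75 coding bases, as long as 1 read, in which the 3 differ most are coding bases 465 to 539 in the GENCODE M21 transcripts, with the 15 positions that differ in capitals.
Ugt2b5: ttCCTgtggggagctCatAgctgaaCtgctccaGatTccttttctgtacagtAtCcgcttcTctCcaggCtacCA
Ugt2b37: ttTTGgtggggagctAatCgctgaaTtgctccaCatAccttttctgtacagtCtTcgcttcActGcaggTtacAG
Ugt2b38: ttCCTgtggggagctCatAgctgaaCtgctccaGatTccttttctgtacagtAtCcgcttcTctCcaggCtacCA
In this stretch Ugt2b37 stood apart and the other two were identical. Ugt2b5 and Ugt2b38 differed most in coding bases 1452 to 1526, at 10 positions, in capitals.
Ugt2b5: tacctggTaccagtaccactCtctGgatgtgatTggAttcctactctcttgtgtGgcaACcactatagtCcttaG
Ugt2b38: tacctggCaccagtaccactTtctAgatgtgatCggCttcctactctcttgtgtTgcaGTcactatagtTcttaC

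The share of 75-base words of a gene's transcripts that also occur in another gene measures how many reads cannot be placed by sequence. It was 30.4% for Ugt2b5, of which 28.4% was shared with Ugt2b38 and 6.39% with Ugt2b37, with some words in both. It was 28.0% for Ugt2b38, 6.37% for Ugt2b37, 1.81% for Ugt2a3, 1.25% for Ugt3a1, 1.12% for Ugt3a2 and 0.858% for Ugt2b34. It was 0% for Ugt2b1, Ugt2b35 and Ugt2b36. Coding identity was 97.0% between Ugt2b5 and Ugt2b38, 94.7% between Ugt2b5 and Ugt2b37, and 93.2% between Ugt3a1 and Ugt3a2. The counting of reads with several matches or from the opposite strand is not described for these data. The counts of Ugt2b5, Ugt2b37 and Ugt2b38 are therefore uncertain, and these shares of sequence set no limit on the error of a count. Ugt2b5 had 14319 to 24287 counts, against 16 to 255 for Ugt2b37 and 1 to 290 for Ugt2b38. A small part of the Ugt2b5 reads, if misplaced, could thus weigh heavily in the counts of the other genes. The KO replicate 2 library had 15221 counts of Ugt2b5 and 1 of Ugt2b38, so few if any Ugt2b5 reads were counted as Ugt2b38 there.

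The sequences before the start sites of 4 Ugt2b genes are shown because they are alike near the start, while the levels of the 4 genes differ widely. The 150 bases before the RefSeq start (GRCm38.p6, minus strand) are given with AGGTCA, a core of the elements bound by nuclear receptors, in capitals.
Ugt2b5 (chr5:87140341-87140490): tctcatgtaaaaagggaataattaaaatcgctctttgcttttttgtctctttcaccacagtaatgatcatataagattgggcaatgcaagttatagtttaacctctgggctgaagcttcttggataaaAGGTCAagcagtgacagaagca
Ugt2b36 (chr5:87092556-87092705): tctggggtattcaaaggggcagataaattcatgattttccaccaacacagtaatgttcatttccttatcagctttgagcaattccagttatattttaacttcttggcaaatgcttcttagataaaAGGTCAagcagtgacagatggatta
Ugt2b37 (chr5:87254789-87254938): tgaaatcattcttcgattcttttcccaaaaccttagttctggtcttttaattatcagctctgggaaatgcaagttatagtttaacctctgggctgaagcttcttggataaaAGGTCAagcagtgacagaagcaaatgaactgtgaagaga
Ugt2b38 (chr5:87424204-87424353): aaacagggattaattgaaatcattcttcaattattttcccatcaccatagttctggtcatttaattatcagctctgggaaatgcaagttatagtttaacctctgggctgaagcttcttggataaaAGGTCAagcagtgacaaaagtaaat
The longest run in all 4 was gataaaAGGTCAagcagtgaca, of 22 bases. On either strand it occurred in these 4 of 32851 promoters of 300 bases (250 before the start and 50 from it), a share of 0.0122%. The run was picked from these 4 promoters, so its presence in them was fixed in advance and the share tests nothing. AGGTCA itself lay 22 to 39 bases before the RefSeq start in the 4 genes and, on either strand, in 16.3% of all promoters. It is part of the shared run, so the 4 matches are not separate finds. The RefSeq starts of Ugt2b36 and Ugt2b38 match the gene spans given above. That of Ugt2b37 lies inside its span, which ends at 87254804, and that of Ugt2b5 lies outside its span, which ends at 87140318. These distances thus depend on the start used. Over the whole 300 bases, the promoters of Ugt2b37 and Ugt2b38 were 95.8% identical. That of Ugt2b5 was 89.5% identical to Ugt2b37, 90% to Ugt2b38 and 70.6% to Ugt2b36.

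Of the 9 members with a promoter entry, Ugt2b35 also held AGGTCA, 215 bases before its start. Ugt2a3 held GTTAAT, a part of the element bound by HNF1, at 54 and 47 bases before its start, and Ugt3a1 held it on the opposite strand (as ATTAAC) at 123 bases. GTTAAT occurred on either strand in 7.10% of all promoters. TATAAA, the letters of the TATA box, was found in Ugt3a1, 8 bases before the RefSeq start, and in 13.6% of all promoters. Whether it acts as a TATA box was not tested. The Ugt3a1 promoter window (9279579 to 9279878) lies inside the gene span given above, which begins at 9276888. The Ugt3a1 positions thus count from a start within that span. CAAAGT, a core of the HNF4A element, and TTCNNNGAA, bound by STAT factors, were in none of the 9, and in 14.4% and 8.30% of all promoters. Ugt3a2 had no entry.

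Levels were compared between genes per length, as CPM per kb of exon. In WT livers, Ugt2b5 was the most abundant at 346 ± 19.0 CPM per kb (SD, n = 3), followed by Ugt2b36 at 285 ± 7.07, Ugt3a2 at 161 ± 13.0, Ugt2a3 at 131 ± 7.14, Ugt2b34 at 121 ± 6.49 and Ugt2b1 at 99.9 ± 7.19 CPM per kb. Ugt2b35 had 38.4 ± 5.76, Ugt3a1 25.8 ± 5.85, Ugt2b37 3.32 ± 1.52 and Ugt2b38 0.595 ± 0.730 CPM per kb. The WT ranges of neighbours in this order overlapped only for Ugt2a3 and Ugt2b34. The order was the same when the length was counted only over words that no other gene shares, which raised Ugt2b5 to 518 and Ugt2b38 to 0.860 CPM per kb.

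**Figure D1:**
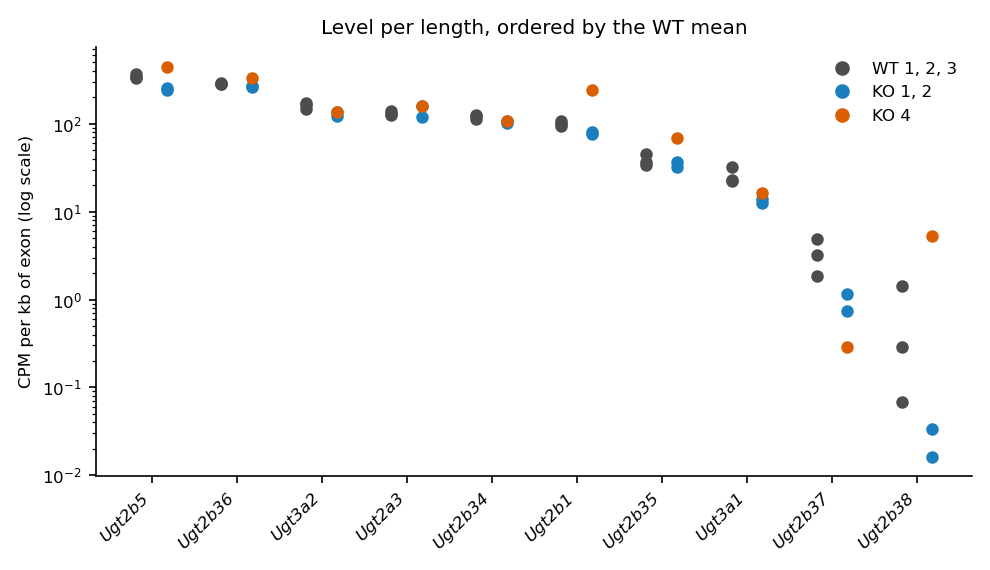
Level of each member as CPM per kb of exon (y axis, log scale) in each library, with members ordered by the WT mean from left to right and 1 point per library. The WT means run from 346 CPM per kb for Ugt2b5 to 0.595 for Ugt2b38, whose 6 libraries are spread more widely than those of any other member.

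The 10 genes together took 0.289% to 0.313% of all counts in WT, 0.259% and 0.242% in KO replicates 1 and 2, and 0.357% in KO replicate 4. Their summed level was 2989 ± 126 CPM in WT and 2892 ± 657 CPM in KO (SD, n = 3), a ratio of 0.968, or 0.842 without KO replicate 4. Ugt2b5, Ugt2b36, Ugt2b34, Ugt3a2 and Ugt2a3 made up 84.2% to 84.8% of this sum in WT, 86.1% and 85.6% in KO replicates 1 and 2, and 75.4% in KO replicate 4. In that library Ugt2b1 made up 16.9% of the sum, against 7.65% to 9.09% in the other 5.

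**Figure D2:**
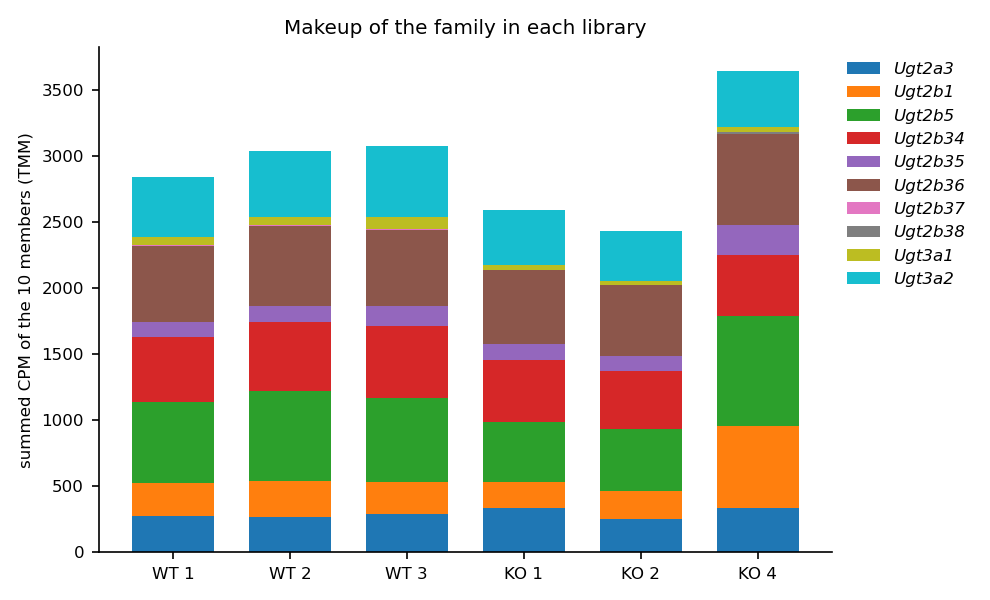
Stacked bars of the TMM-scaled CPM of the 10 members (y axis) in each of the 6 libraries (x axis), 1 colour per gene. The bars of KO 1 (2594 CPM) and KO 2 (2438 CPM) are the lowest and that of KO 4 (3646 CPM) is the highest, with a wide Ugt2b1 segment.

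Across KO and WT livers, Ugt2b37, Ugt3a1, Ugt3a2 and Ugt2b34 were lower in every KO library than in every WT library. These 4 of 10 members stand beside 6.36% of all 13773 genes tested whose ranges lay apart in this direction. Without KO replicate 4 the ranges of 8 members lay apart, all lower in KO, beside 15.5% of 14102 genes. Both counts use the contrast with which the family was chosen, and nothing is read from them. The edgeR quasi-likelihood test called 0% of all genes at an adjusted p under 0.05 (an unadjusted p under 0.05 was reached by 988). DESeq2 called 0.536% of 14923 genes as lower in KO, Ugt2b37 and Ugt3a1 among them, and gave no p to Ugt2b38. Without KO replicate 4, edgeR called 0.808% of 14102 genes in either direction, none of them a member, and DESeq2 called 1.71% of 13374 genes as lower, with Ugt2b5, Ugt2b37, Ugt2b38 and Ugt3a1 among them.

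**Figure D3:**
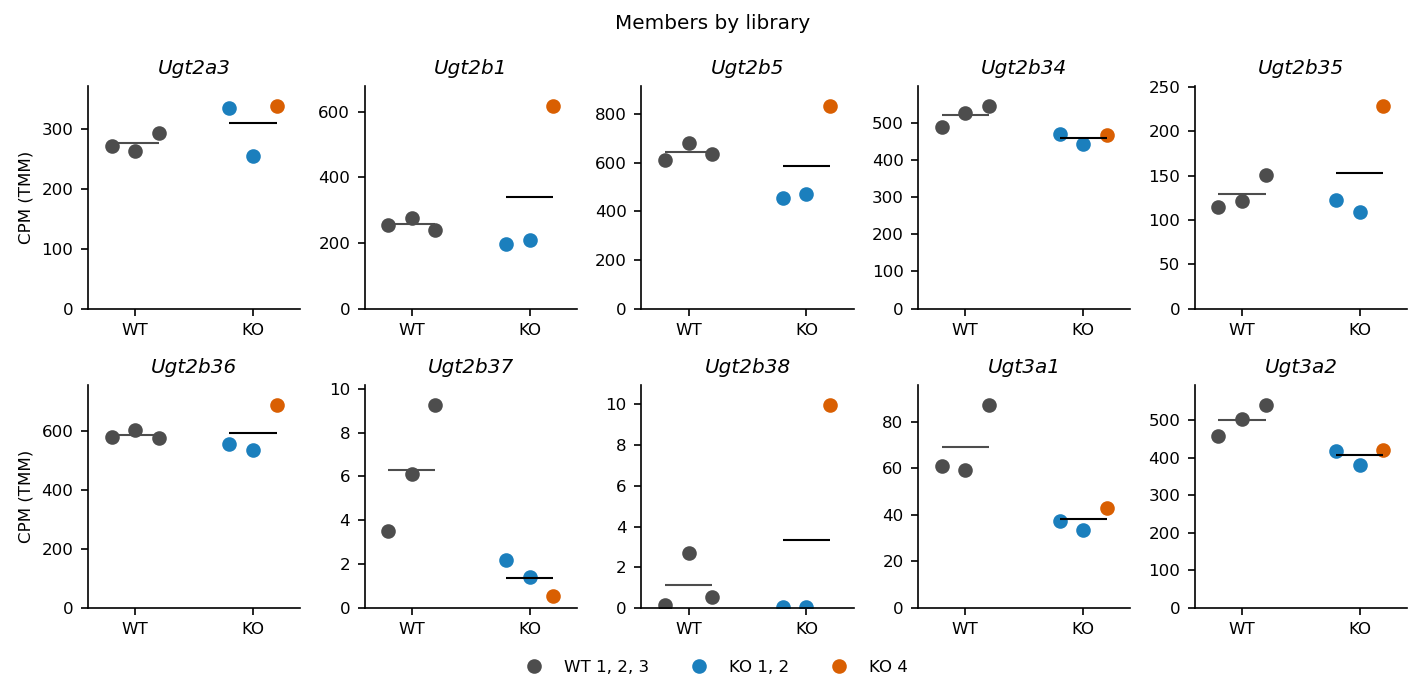
TMM-scaled CPM of each member (y axis, from 0, scaled per gene) in WT and KO livers, with 1 point per library and a line at the mean of each group, KO 4 included. The KO points of Ugt2b34, Ugt2b37, Ugt3a1 and Ugt3a2 all lie below the WT points, and KO 4 is the highest point for 6 members and the lowest for Ugt2b37.

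Ugt2b37 showed the largest fitted difference of the 10 in 6 libraries, and Ugt2b38 the largest without KO replicate 4. The counts of Ugt2b37 were 108, 190 and 255 in WT, and 69, 45 and 16 in KO 1, KO 2 and KO 4. The groups did not overlap, and KO replicate 4 was the lowest library. The level was 6.28 ± 2.87 CPM in WT and 1.38 ± 0.818 CPM in KO (SD, n = 3), 4.57-fold higher in WT, or 3.52-fold without KO replicate 4. The log2 fold change of KO against WT was -2.18 (SE 0.51), and -1.80 (SE 0.42) without KO replicate 4. The exact 95% Poisson interval of the 16 counts was 9.15 to 26.0, and that of the lowest WT count, 108, was 88.6 to 130, which covers counting error only. The female-biased genes were also lower in KO libraries and lowest in KO replicate 4, with a summed level of 2718 to 3806 CPM in WT, 2009 and 1926 CPM in KO replicates 1 and 2 and 45.5 CPM in KO replicate 4. Their part in the difference of Ugt2b37 was not tested.

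Of 13772 other genes tested, the 5 with the profile most like Ugt2b37 over the 6 libraries were Maob (Pearson r = 0.988 on log2 CPM), 4933404O12Rik (0.983), Igsf11 (0.982), Cyp3a16 (0.980) and Cyp3a41b (0.980). The libraries are the points, and they include the group difference and KO replicate 4. Over the 5 libraries without it the values were 0.974, 0.962, 0.987, 0.965 and 0.959 in the same order. Maob encodes monoamine oxidase B and had 253 CPM on average in WT and 202 CPM in KO (214 CPM in KO replicates 1 and 2), while Cyp3a16, a cytochrome P450 listed here as female-biased, had 31.3, 35.6 and 158 CPM in WT and 7.98, 5.26 and 0.343 CPM in KO.

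Ugt2b38 had the fewest counts and the widest spread. It had 4, 84 and 15 counts in WT and 2, 1 and 290 in KO replicates 1, 2 and 4. The library of KO replicate 4 was the highest of all and the other KO libraries were the lowest, so the direction rests on 1 library. The log2 fold change was 1.55 (SE 1.60) with 6 libraries and -4.47 (SE 1.41) without KO replicate 4. Over the libraries without it there were 103 counts in WT and 3 in KO, a ratio of 24.8 after scaling by total counts with an exact 95% interval of 8.27 to 122 that covers counting error only. The WT libraries alone spanned 0.130 to 2.70 CPM.

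Ugt2b5, the most abundant member, had 18835, 21196 and 17547 counts in WT and 14319, 15221 and 24287 in KO replicates 1, 2 and 4. KO replicates 1 and 2 lay below every WT library, and KO replicate 4 lay above them, at 1.22 times the highest of the others in CPM. The level was 643 ± 35.3 CPM in WT and 586 ± 214 CPM in KO (SD, n = 3). The log2 fold change was -0.13 (SE 0.23), and -0.47 (SE 0.11) without KO replicate 4. Ugt2b5, Ugt2b37 and Ugt2b38 thus ordered KO replicate 4 in different ways, high for Ugt2b5 and Ugt2b38 and low for Ugt2b37, although their sequences are nearly alike.

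Ugt2b1, which shares no 75-base word with another gene, had 7838, 8611 and 6623 counts in WT and 6267, 6718 and 17969 in KO replicates 1, 2 and 4. The last was 2.23 times the highest of the other 5 libraries in CPM, and KO replicates 1 and 2 lay below every WT library. The level was 257 ± 18.5 CPM in WT and 341 ± 239 CPM in KO (SD, n = 3). The log2 fold change was 0.41 (SE 0.40) and turned to -0.33 (SE 0.11) without KO replicate 4. The male-biased genes were high in the same library, at 9756 CPM, and their part in this was not tested.

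Ugt2b35 and Ugt2b36 lie between Ugt2b1 and Ugt2b5 in the cluster. Ugt2b35 had 3519, 3795 and 4167 counts in WT and 3891, 3535 and 6661 in KO. Its log2 fold change was 0.25 (SE 0.27), and -0.15 (SE 0.14) without KO replicate 4, where the groups overlapped. Ugt2b36 had 17860, 18791 and 15937 counts in WT and 17565, 17358 and 20071 in KO, with a log2 fold change of 0.02 (SE 0.13), or -0.10 (SE 0.10) without KO replicate 4. Both were highest in KO replicate 4, at 1.51 and 1.14 times the highest of the other libraries in CPM. Ugt2b36 also turned negative when libraries were scaled by their totals alone.

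Ugt2b34 and Ugt2a3 kept the sign of their log2 fold change without KO replicate 4. Ugt2b34 had 15053, 16350 and 15011 counts in WT and 14789, 14342 and 13590 in KO. The level was 519 ± 28.0 CPM in WT and 459 ± 13.8 CPM in KO (SD, n = 3), a log2 fold change of -0.18 (SE 0.11) with and -0.18 (SE 0.11) without KO replicate 4. Ugt2a3 had 8394, 8235 and 8111 counts in WT and 10603, 8274 and 9876 in KO, where the groups overlapped. Its log2 fold change of 0.16 (SE 0.14), or 0.10 (SE 0.13) without KO replicate 4, was the only positive one of the 10 in 5 libraries.

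Ugt3a1 had 1874, 1840 and 2401 counts in WT and 1184, 1080 and 1257 in KO. The groups did not overlap, and KO replicate 4 lay close to the other KO libraries. The level was 69.0 ± 15.6 CPM in WT and 38.0 ± 4.89 CPM in KO (SD, n = 3), 1.82-fold higher in WT, or 1.95-fold without KO replicate 4. The log2 fold change was -0.86 (SE 0.17), and -0.95 (SE 0.18) without KO replicate 4. Its neighbour Ugt3a2 had 14122, 15624 and 14886 counts in WT and 13227, 12298 and 12274 in KO. The groups lay apart for it too, at 500.0 ± 40.4 CPM in WT and 407 ± 23.0 CPM in KO (SD, n = 3), with a log2 fold change of -0.30 (SE 0.11), or -0.32 (SE 0.12) without KO replicate 4.

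**Figure D4:**
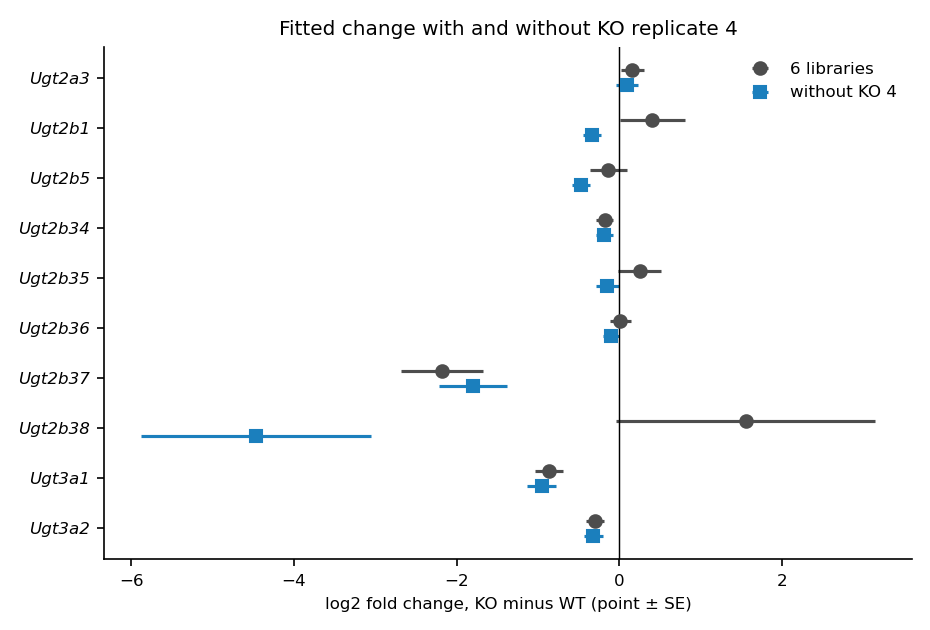
Fitted log2 fold change of KO against WT with its standard error (x axis) for each member (y axis), from 6 libraries and without KO replicate 4. Ugt2b37, Ugt3a1, Ugt3a2, Ugt2b34, Ugt2b5 and Ugt2a3 keep their sign, while Ugt2b1, Ugt2b35, Ugt2b36 and Ugt2b38 cross 0.

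Over the 6 libraries, members did not move as 1 block. Of the 45 pairs of members, Ugt2b34 on chromosome 5 and Ugt3a2 on chromosome 15 had the most similar profile over the 6 libraries (Pearson r = 0.996 on log2 CPM), followed by Ugt2b1 and Ugt2b36 (0.972) and Ugt3a1 and Ugt3a2 (0.958). Without KO replicate 4 these values were 0.997, 0.911 and 0.956 over 5 libraries. Ugt2b1 and Ugt2b37 were the most opposed with 6 libraries (-0.56), but had r = 0.72 without KO replicate 4, so their opposition rests on that library. Without it, 9 members had a negative log2 fold change. The lowest correlation was then -0.49, between Ugt2a3 and Ugt2b1. Among pairs without Ugt2a3 the lowest was 0.17, between Ugt2b1 and Ugt2b35. These values describe libraries that share the group difference.

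The genes around these enzymes were taken from 6 lists. Of the other UDP-glycosyltransferases, 8 of 12 were tested and none passed in edgeR with 6 or 5 libraries or in DESeq2 with 6. Their median log2 fold change was -0.38, or -0.24 without KO replicate 4, beside 0.00 for all genes in both. Ugt1a1, the bilirubin-conjugating enzyme, had 332 CPM on average in WT and 300 CPM in KO, a log2 fold change of -0.14, or -0.03 without KO replicate 4. Ugt1a5 had 65.0 and 44.7 CPM, a log2 fold change of -0.54, or -0.41 without that library. The Ugt1a genes overlap and share exons, so their counts are uncertain. Of 13 genes that supply sugar donors, 13 were tested and none passed. Their median log2 fold changes were 0.08 and, without KO replicate 4, 0.07. Ugp2, which makes UDP-glucose, had a log2 fold change of 0.29, or 0.11 without KO replicate 4, and Pgm1, which interconverts glucose phosphates, had 0.02 in both fits.

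Of 5 tested genes of glucuronate use and ascorbate synthesis, 1 rose without KO replicate 4. This was Dcxr, the L-xylulose reductase, with a log2 fold change of 0.78 (SE 0.14) and an adjusted p = 0.0496 from edgeR, and none passed with 6 libraries. The list's medians were 0.03 and 0.05 in the same order. Of 9 genes of glucuronide hydrolysis and transport, none passed with 6 libraries, where DESeq2 gave no p to Slco1a1. Their medians were 0.15 and, without KO replicate 4, -0.06. Without that library, 1 rose and 1 fell in edgeR. The organic anion transporter Slco1a4 rose by 0.70 on the log2 scale (SE 0.12, adjusted p = 0.0479 from edgeR), and its relative Slco1a1 changed by -4.65 (SE 0.37, adjusted p = 0.00300 from edgeR). Slco1a1 is also on the male-biased list, and it had 64.8, 152 and 123 CPM in WT, 4.24 and 4.73 CPM in KO replicates 1 and 2 and 705 CPM in KO replicate 4.

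Of 18 transcription factors that act on UGT genes, 1 passed in DESeq2 with 6 libraries and none in edgeR. This was Nr1i3 (CAR), a nuclear receptor that responds to drugs and bilirubin, at 376 CPM on average in WT and 243 CPM in KO, with an adjusted p = 0.0309 from DESeq2 and 0.350 from edgeR. Without KO replicate 4 its adjusted p was 0.0332 from DESeq2 and 0.180 from edgeR, and KO replicates 1 and 2 averaged 267 CPM. The list's medians were -0.01 and -0.03. Of 12 genes of steroid and bile acid metabolism, none passed in edgeR with 6 or 5 libraries. In DESeq2 with 6 libraries none of the 11 tested passed, and Cyp7b1 was given no p. The medians of the 12 genes were -0.09 and -0.22. Akr1c6 and Cyp27a1, the most abundant of them with Cyp27a1 acting in bile acid synthesis, had log2 fold changes of -0.10 and -0.09, or -0.22 and -0.22 without KO replicate 4.

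DESeq2 without KO replicate 4 called more of these genes, which are named here after their values were seen. On the transport list, Gusb, the lysosomal beta-glucuronidase, and Slco1a4 rose, and Slco1a1 and the bile acid and drug uptake transporter Slco1b2 fell. Dcxr rose among the genes of glucuronate use. Of the 18 transcription factors, Nr1i3 and Ppara, the fatty acid-sensing nuclear receptor, fell. Of the 12 steroid and bile acid genes, 1 fell, Cyp7b1, an oxysterol hydroxylase that is also on the male-biased list and had 302 CPM in KO replicate 4. None of the other UDP-glycosyltransferases or of the sugar donor genes was called.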

How the data were processed

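RNA-seq was done on livers from 3 p75NTR KO mice and 3 WT mice. The authors deposited whole-number counts per gene that were not normalized. Per their methods and processing notes, polyadenylated RNA was made into directional libraries, read as 75-base single ends, trimmed with Trimmomatic, aligned with STAR 2.5.0c to GRCm38.p5 with GENCODE M12, counted with featureCounts and tested with DESeq2. The table held 49671 genes, of which 49412 matched GENCODE M21, the source of symbols, positions and exon lengths. No row was without a gene.

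KO and WT were tested by edgeR 4.0.16 under R 4.3.3 (filterByExpr, TMM, glmQLFit, glmQLFTest) with Benjamini-Hochberg adjustment over all genes tested, and a call is an adjusted p under 0.05. The standard error (SE) of an edgeR log2 fold change was derived from the test, as its absolute value divided by the square root of F. Alternatives were DESeq2 1.42.0, limma-voom (limma 3.58.1), other scalings and filters, robust dispersions, each library left out and a replicate block. Correlations without KO replicate 4 were added after seeing the data. The fits were tested on simulated data. CPM are TMM-scaled. Replicates of a group differed by more than sampling noise. Promoters are from RefSeq GRCm38.p6.

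The members and gene lists were chosen with earlier results of these data known. All 10 members are named. Of each other list, up to 3 calls with the smallest p are named or, with no call, the 2 with the highest mean count.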

Additional observations from a re-analysis of the deposited data

How the results depend on the processing

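The number of genes called over all 6 libraries was 0 in edgeR, and also with DESeq2's size factors, with library totals and with a minimum of 10 counts in every library. It was 158 in DESeq2, 5 in limma-voom, 136 without a filter on low counts and 9 with robust dispersions. Leaving out 1 library gave 0 to 114 calls, and the 114 came without KO replicate 4. Without that library, DESeq2 called 402 genes, and edgeR on WT and KO replicates 1 and 2 called 288, or 332 with the replicate block. Nothing in the labels pairs the replicate numbers, and the deviations of same-numbered libraries from their group means had correlations of -0.124 and 0.0259. With the replicate block over 6 libraries edgeR called 468 genes, a fit in which WT replicate 3 and KO replicate 4, whose numbers occur once, do not enter the contrast. Members were called in some of these fits. With the replicate block they were Ugt2b5, Ugt2b38 and Ugt3a1, all lower in KO, beside 468 calls among 13773 genes tested. Without a filter on low counts they were Ugt2b37 and Ugt3a1, both lower in KO, beside 136 calls among 23581 genes. In edgeR on WT and KO replicates 1 and 2, Ugt3a1 was called with and without the block, beside 332 and 288 calls among 13898. The family was chosen on this contrast, so nothing is read from these calls.

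Among the members, Ugt2a3, Ugt2b34, Ugt2b37, Ugt3a1 and Ugt3a2 kept the sign of their log2 fold change under all 15 alternatives, with Ugt2b37 between -2.67 and -1.40 and Ugt3a1 between -0.96 and -0.66. Ugt2b5 ranged from -0.48 to 0.03 and turned positive without KO replicate 1 or 2. Ugt2b1, Ugt2b35, Ugt2b36 and Ugt2b38 changed sign without KO replicate 4 and with the replicate block, and Ugt2b38 in limma-voom too. With 50-base words, the shared part rose to 41.7% for Ugt2b5, 37.4% for Ugt2b38 and 18.3% for Ugt2b37. The cause of these changes was not tested. With 3 libraries per group, 1 to 290 counts of Ugt2b38 limit what its values can show.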

Other observations

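Between Ugt2b34 and Ugt2b38 the annotation holds 18 other gene models, of which 4 had 10 or more counts in a library and 8 had 0 in all. All 4 are pseudogenes. Gm18635 had 18, 31 and 21 counts in WT and 31, 31 and 102 in KO replicates 1, 2 and 4. It was highest in KO replicate 4, as were 6 members, Ugt2b35 among them. Gm18635 begins at 87014160, near the end of Ugt2b35 at 87013275. Gm21049 had 31, 43 and 60 counts in WT and 23, 18 and 20 in KO, without overlap. Gm35570 had 15, 43 and 97 counts in WT and 38, 14 and 25 in KO, and Gm7652 had 18, 17 and 31 in WT and 56, 21 and 34 in KO. No member shared a 50-base word with any of the 4.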
